A study of Arabidopsis thaliana with 12 samples.

Results

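The comparison of dxo1-2 with the wild type used 6 of the 12 RNA-seq libraries of the series, 3 of dxo1-2 and 3 of Col-0, and all 37184 genes counted in them: 36899 nuclear, 133 plastid-encoded and 152 mitochondrion-encoded. Col-0 is the Columbia wild type of Arabidopsis thaliana, and dxo1-2 is a mutant allele of DXO1 (AT4G17620). Every plant was a soil-grown seedling of 21 days under 16 h of light and 8 h of dark. The seeds had been stratified at 4 °C for 2 days. The labels name no treatment or transgene for any group, and they do not say what kind of allele dxo1-2 is. The third genotype used below, xrn3-8, is a mutant of the exoribonuclease gene XRN3, again with 3 libraries. The labels give 1 allele of DXO1, no complemented line, no hour of harvest and no count of plants per library. Each library is named a biological replicate in the series' design text. The p-values of single genes below rest on a spread estimated over all 12 libraries, 3 per genotype. The remaining genotype, the dxo1-2 xrn3-8 double mutant, entered that estimate but is not compared here. Sample titles mark the libraries of Col-0, xrn3-8 and dxo1-2 as re-analyzed, and those of the double mutant carry no such mark.

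DXO1 is the Arabidopsis member of the DXO family, whose enzymes work at the 5′ end of RNA molecules. The Arabidopsis protein removes the NAD cap that some RNAs carry in place of the usual methylguanosine cap, and it binds RNMT1, the methyltransferase that completes the usual cap. Plants without DXO1 are known to be small and pale, with disturbed chloroplasts. The study asks how ribosomal RNA of the cytoplasm and of the chloroplast is processed without DXO1, and the libraries described here, depleted of ribosomal RNA, record the other RNA of such plants.

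Gene counts summed to 63073032 to 72688919 per Col-0 library and to 60138933 to 71210737 per dxo1-2 library. Log2 levels correlated at 0.986 to 0.987 within Col-0, at 0.986 to 0.987 within dxo1-2 and at 0.954 to 0.963 between the genotypes, and no library stood apart from its group. Levels are given as CPM, counts per 1000000 of the TMM-scaled library size, and changes as log2 fold changes of dxo1-2 over Col-0 with their standard error (SE). A gene is said to have risen or fallen where the adjusted p of edgeR's quasi-likelihood test was under 0.05. The 6 leaf markers, RBCS1A and RCA of carbon fixation among them, were abundant in every library, at a summed 12226 to 13803 CPM in Col-0 and 9500 to 12144 CPM in dxo1-2, and CA1 alone of the 6 fell, a call that was lost without Col-0 replicate 2 or 3 or dxo1-2 replicate 1 or 3. The 5 seed storage markers summed to 0.0638 to 4.54 CPM in Col-0 and to 0.0681 to 0.107 CPM in dxo1-2, and the 6 flower and pollen markers to 0.867 to 1.35 and 0.851 to 1.47 CPM, with the pollen gene VGD1 at 0. The floral organ gene AP3 held 8, 20 and 15 reads in Col-0 and 4, 0 and 0 in dxo1-2 and was called lower, a call lost without Col-0 replicate 2 or 3 or dxo1-2 replicate 2 or 3. The 6 root markers summed to 95.8 to 153 CPM in Col-0 and to 168 to 191 CPM in dxo1-2. Nearly all of that was PYK10, a beta-glucosidase of root and hypocotyl (adjusted p 0.0811), its dxo1-2 libraries all above those of Col-0, while the root hair gene EXPA7 was at 0. The root endodermis regulator MYB36 held 0, 1 and 0 reads in Col-0 and 5, 3 and 8 in dxo1-2 and was called higher, a call lost without Col-0 replicate 1 or 3 or dxo1-2 replicate 1 or 3.

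DXO1 itself checked the genotype labels. It stood at 8.63, 8.92 and 8.93 CPM in Col-0 and 1.53, 1.29 and 1.73 CPM in dxo1-2, from 502 to 559 reads per Col-0 library and 76 to 113 per dxo1-2 library. The groups lay far apart, and the level in the mutant was 5.80-fold lower (log2 fold change -2.54, SE 0.12, adjusted p 4.6e-09). Reads remained in every dxo1-2 library, and which part of the gene they cover cannot be read from gene counts. XRN3 was at 51.8, 52.1 and 51.4 CPM in Col-0 and 59.1, 59.6 and 58.3 CPM in dxo1-2, a difference that did not pass the threshold (log2 fold change 0.19, SE 0.07, adjusted p 0.0563). RNMT1, whose product is the partner of DXO1, was at 11.3, 9.89 and 11.1 CPM in Col-0 and 11.0, 10.1 and 10.7 CPM in dxo1-2, and its groups overlapped (log2 fold change -0.02, SE 0.09, adjusted p 0.874).

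Genes beside DXO1 on the chromosome were looked at as well, since a mutation can touch its surroundings. On 1 side, the pentatricopeptide repeat gene AT4G17616 fell with a log2 fold change of -0.63 at an adjusted p of 0.000252 and CBL1, a calcium sensor of the calcineurin B-like family, with -0.76 at an adjusted p of 0.00374. On the other side CKB2, a regulatory subunit of casein kinase II, stood at 26.9, 25.2 and 24.8 CPM in Col-0 and 24.7, 25.7 and 26.5 CPM in dxo1-2. The CKB2 groups overlapped and the log2 fold change was 0.00 (SE 0.07, adjusted p 0.998). The protein kinase gene AT4G17660, the third gene on that side, fell (log2 fold change -2.05, SE 0.20, adjusted p 2.6e-06), and AT4G17650 between them fell by less (-0.36 at an adjusted p of 0.0137). The last of these calls was lost without Col-0 replicate 3 or without dxo1-2 replicate 1, where the adjusted p reached 0.0857. Against xrn3-8, the difference in CBL1 did not pass the threshold (log2 difference 0.11, adjusted p 0.649), whereas AT4G17616 and AT4G17660 were lower in dxo1-2 by log2 differences of -0.76 and -1.15. AT4G17612, the outermost of the 6 neighbours, had no read in any of the libraries.

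**Figure D1:**
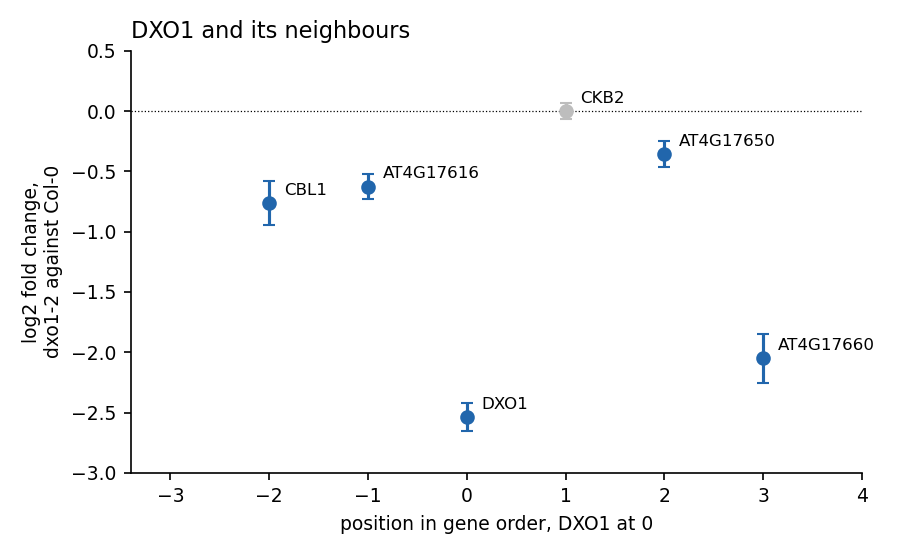
Log2 fold change of dxo1-2 over Col-0 (points, with SE as bars) for DXO1 and the genes up to 3 positions away in the order of the RefSeq annotation, with the position from DXO1 on the x axis. DXO1 at -2.54 and AT4G17660 at -2.05 lie lowest, and CKB2, next to DXO1, lies at 0.00.

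Of 21974 genes with enough reads to test, 9252 (42.1%) were called: 4714 (21.5%) rose and 4538 (20.7%) fell in dxo1-2. Most of these changes were modest: the median absolute log2 change of the genes called was 0.61, and 4395 of them, 47.5%, changed by less than 1.5-fold. At least a 2-fold rise was seen for 1252 genes (5.7%) and a 2-fold fall for 1107 (5.04%), a 4-fold rise for 357 and a 4-fold fall for 300, and an 8-fold rise for 156 and an 8-fold fall for 74. The 3 libraries of dxo1-2 lay wholly above those of Col-0 for 28.3% of genes and wholly below for 27.4%. The share of genes called followed their level, and so did the direction. Under 1 CPM, 21.2% of 4091 genes were called, 550 higher and 317 lower. From 1 to 10 CPM the call went to 41.0%, with 1911 higher and 1321 lower. From 10 to 100 CPM it was 51.3%, with 2043 higher and 2604 lower, and above 100 CPM 53.5%, with 210 higher and 296 lower. The median SE fell from 0.53 in the lowest class to 0.10 in the highest. Levels of bulk RNA do not tell fewer cells of a type from less RNA per cell, here and in all that follows.

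**Figure D2:**
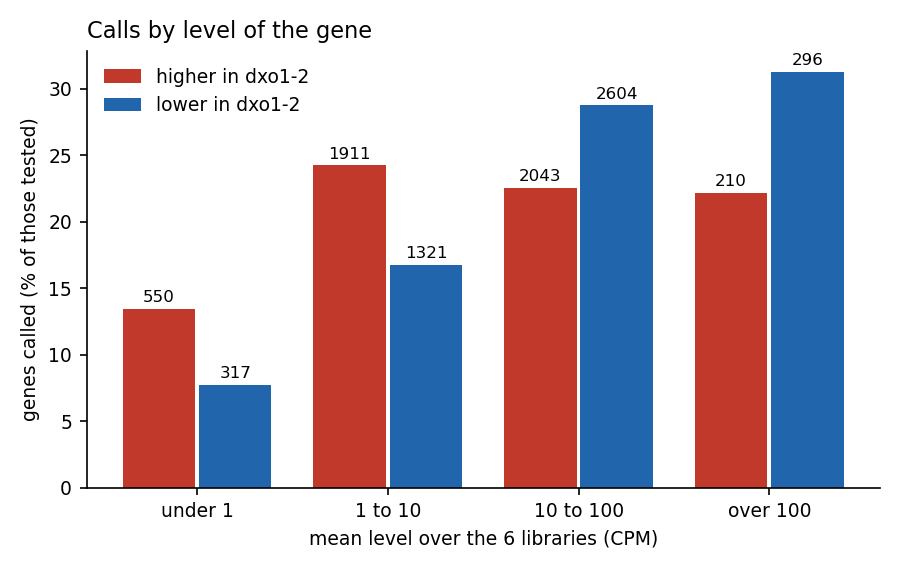
Percent of tested genes that rose or fell in dxo1-2 (bars, with the number of genes above them) in 4 classes of mean level over the 6 libraries, in CPM. Genes that rose outnumber those that fell in the 2 classes under 10 CPM (550 against 317 and 1911 against 1321), and the order turns in the 2 classes above.

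Among genes with a mean of at least 5 CPM, the largest rises included ORA47, described with the jasmonate genes below, and AGL19, a MADS-box regulator that promotes flowering after cold. AGL19 stood at 1.13, 1.07 and 1.19 CPM in Col-0 and 9.36, 8.54 and 12.2 CPM in dxo1-2, without overlap (log2 fold change 3.15, SE 0.21, adjusted p 1.1e-07). The mannose-binding lectin gene AT1G52100 rose from a range of 0.480 to 0.622 CPM to 9.96 to 10.9 CPM (log2 fold change 4.23, SE 0.21, adjusted p 7.7e-09). Also among the 12 largest rises were the F-box gene AT2G17830 (3.01), the histone gene AT3G53650 (2.96) and the CCT motif gene AT1G07050 (2.64), with log2 fold changes in parentheses. Another 3 of the 12 were annotated as pseudogenes, AT5G35935 (4.77), AT1G20390 (3.87) and AT5G14840 (2.87), for which reads from related copies cannot be told apart.

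The largest fall was in a long non-coding RNA, AT3G06655, at 10.9, 11.7 and 10.6 CPM in Col-0 and 0.0990, 0.0170 and 0.245 CPM in dxo1-2. It held 597 to 731 reads per Col-0 library and 1 to 16 per dxo1-2 library (log2 fold change -6.48, SE 0.37, adjusted p 3.2e-08), and its log2 fold change was -7.43 without dxo1-2 replicate 3. It was also lower in dxo1-2 than in xrn3-8, by a log2 difference of -3.93 at an adjusted p of 1.9e-06. The MATE efflux transporter gene AT2G04070 fell to 0.269 to 0.504 CPM from 8.68 to 13.0 CPM (log2 fold change -4.80, SE 0.40, adjusted p 6.7e-07). NAC090, a NAC transcription factor, stood at 8.67, 11.3 and 12.3 CPM in Col-0 and 0.736, 0.510 and 0.994 CPM in dxo1-2 (log2 fold change -3.84, SE 0.26, adjusted p 9.9e-08). The other genes with the largest falls included receptor-like kinases, CRK36 (-3.03) and the leucine-rich repeat kinase AT1G51790 (-3.08), the cytochrome P450 gene CYP76C6 (-3.0), the nucleoside phosphatase gene AT1G14250 (-3.32), the defensin gene PDF1.2 and ARD3, a gene for an acireductone dioxygenase-like protein of methionine salvage. Lack of overlap between the groups was a condition for choosing the genes in these 2 paragraphs, so it is not a result about them.

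Nuclear genes were then read through 28 lists of genes with a shared role. Each list held 9 to 34 genes, so most of the 21974 tested genes are in none of them. In each list, the counts stand against 21.5% of all tested genes that rose, 20.7% that fell, and a median log2 fold change over all of them of 0.01. The lists and their members were chosen with earlier results of these data known, so this comparison describes them and is not a test. Compared with xrn3-8, 25.9% of all tested genes were higher in dxo1-2 and 25.9% lower. Such a difference can come from a change in either mutant. In xrn3-8 against Col-0, 16.3% of all tested genes rose and 18.1% fell. The plot of all lists sets the flavonoid genes and the rapid stress regulators at the top, each with a median of 0.69, and the defensin group at the bottom, with a median of -1.89 and 7 of 9 lower.

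**Figure D3:**
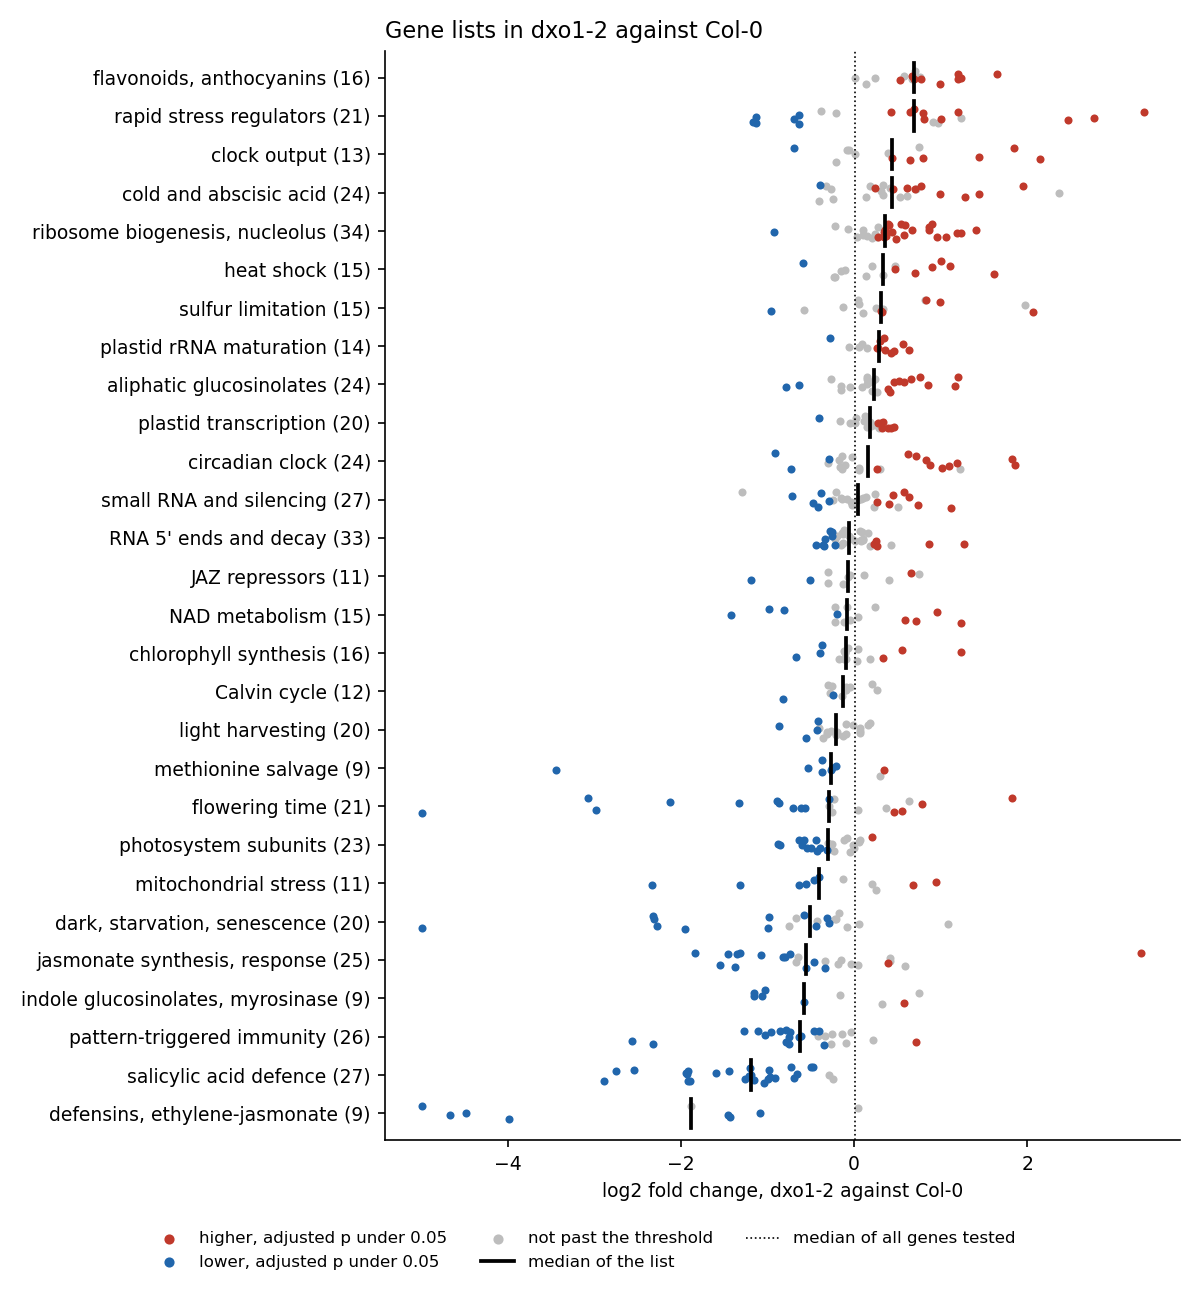
Log2 fold change of dxo1-2 over Col-0 for the tested members of 28 gene lists (points, red higher, blue lower, grey not past the threshold), with each list's median as a black bar, its number of tested genes in parentheses and the median of all tested genes as a dotted line. AP1, SAG12 and PDF1.2b lie beyond -5 and are drawn at that edge. Lists of defence, jasmonate and starvation genes lie to the left and those of flavonoids, nucleolar factors and rapid stress regulators to the right.

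Salicylic acid is the hormone of defence against pathogens that feed on living cells, made in Arabidopsis mainly through the isochorismate synthase ICS1 under the control of the transcription factors SARD1 and CBP60G. Of 27 genes of this pathway, 25 fell, none rose, and the median log2 fold change was -1.19. SARD1 stood at 95.4, 81.0 and 77.8 CPM in Col-0 and 13.8, 14.2 and 15.4 CPM in dxo1-2. The libraries lay far apart and the level in dxo1-2 was 5.85-fold lower (log2 fold change -2.55, SE 0.10, adjusted p 6.2e-10). CBP60G fell from a range of 94.5 to 107 CPM to one of 39.5 to 49.1 CPM (log2 fold change -1.2, SE 0.11, adjusted p 9.9e-07). ICS1 was at 38.2, 31.8 and 33.2 CPM in Col-0 and 19.5, 18.7 and 16.5 CPM in dxo1-2 and fell by less (log2 fold change -0.92, SE 0.14, adjusted p 0.000132), and PBS3, which acts after ICS1 in the same synthesis, fell by a log2 value of 1.6. Upstream, EDS1, the hub of immune receptor signalling, stood at 142, 151 and 145 CPM in Col-0 and 61.6, 57.7 and 72.5 CPM in dxo1-2 (log2 fold change -1.19, SE 0.08, adjusted p 1.3e-07), and its partners SAG101 (-0.99) and PAD4 (-0.50) fell with it. The receptor gene NPR1 was at 50.5, 52.1 and 48.4 CPM in Col-0 and 30.1, 31.7 and 31.7 CPM in dxo1-2 (log2 fold change -0.69, SE 0.07, adjusted p 4.2e-06).

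The pathogenesis-related genes that salicylic acid induces were lower too. PR2, a beta-1,3-glucanase, stood at 118, 108 and 89.1 CPM in Col-0 and 27.1, 26.2 and 29.7 CPM in dxo1-2, without overlap (log2 fold change -1.93, SE 0.33, adjusted p 0.000292). PR5 fell with a log2 fold change of -1.22 at an adjusted p of 0.00223. PR1 varied more, at 99.5, 43.0 and 46.9 CPM in Col-0 and 29.5, 30.9 and 36.2 CPM in dxo1-2, with Col-0 replicate 1 well above the other Col-0 libraries (log2 fold change -0.97, SE 0.36, adjusted p 0.0422). Its call was lost without that library, where the log2 fold change was -0.46, without any of the dxo1-2 libraries, and in DESeq2 with all libraries. ACD6, an ankyrin membrane protein that raises salicylic acid, was at 199, 252 and 246 CPM in Col-0 and 66.2, 66.8 and 51.0 CPM in dxo1-2 and fell clearly (log2 fold change -1.92, SE 0.13, adjusted p 8.3e-08). ALD1 and FMO1, which make pipecolic acid and its hydroxylated form, signals of systemic resistance, fell with log2 fold changes of -2.89 (SE 0.58) and -1.93 (SE 0.48). EDS5 and WRKY46 were the 2 members that did not pass, at -0.29 and -0.25 with overlapping groups. Against xrn3-8, where 51.9% of all tested genes differed, 25.9% higher in dxo1-2 and 25.9% lower, 17 of the 27 were lower in dxo1-2 and 5 higher. SARD1 and PR2 were among the lower, with log2 differences of -1.87 at an adjusted p of 6.6e-09 and -1.80 at an adjusted p of 0.000346. EDS1 (log2 difference -0.06 at an adjusted p of 0.590) and CBP60G (0.04 at an adjusted p of 0.794) did not pass, with xrn3-8 means of 66.5 and 43.2 CPM.

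Pattern-triggered immunity starts at cell-surface receptors that detect microbial molecules and passes through co-receptors, kinases and a burst of reactive oxygen. Of 26 such genes, 17 fell, 1 rose, and the median was -0.63. Among receptors, RLP23, which detects a peptide of microbial necrosis-inducing proteins, stood at 65.6, 92.5 and 88.7 CPM in Col-0 and 14.7, 12.5 and 14.3 CPM in dxo1-2, without overlap (log2 fold change -2.57, SE 0.15, adjusted p 4.3e-08). SOBIR1, the kinase that receptor-like proteins such as RLP23 need, was at 343, 395 and 391 CPM in Col-0 and 171, 178 and 203 CPM in dxo1-2 (log2 fold change -1.03, SE 0.12, adjusted p 9.0e-06). EFR and FLS2, the receptors of elongation factor Tu and flagellin, fell by 1.28 and 0.79 on the log2 scale, and the chitin receptor CERK1 by 0.96. Downstream, the kinase MPK11 was at 47.5, 49.9 and 62.1 CPM in Col-0 and 8.53, 9.70 and 13.6 CPM in dxo1-2 and fell 5.02-fold (log2 fold change -2.33, SE 0.17, adjusted p 1.6e-07), MPK3 fell with -0.78 at an adjusted p of 0.000141, and MPK6 did not pass (-0.10 at an adjusted p of 0.400). RBOHD, the oxidase of the oxygen burst, stood at 117, 114 and 113 CPM in Col-0 and 51.0, 81.3 and 88.4 CPM in dxo1-2 and the cytosolic kinase BIK1 at 30.2, 43.3 and 38.2 CPM in Col-0 and 20.6, 23.4 and 23.1 CPM in dxo1-2, both lower without overlap. The transcription factor gene WRKY33 fell (log2 fold change -0.62, SE 0.12, adjusted p 0.000782), and WRKY22 was the member that rose, from a range of 8.02 to 11.3 CPM to one of 13.5 to 18.2 CPM (log2 fold change 0.72, SE 0.18, adjusted p 0.00541). FRK1, a kinase gene used as a reporter of this pathway, fell by 1.11, a call that was lost without Col-0 replicate 3, where the log2 fold change was -0.53 and the adjusted p 0.112. Against xrn3-8, 8 of the 26 were higher in dxo1-2 and 8 lower, beside 25.9% of all tested genes in each direction.

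Jasmonate, the wound and defence hormone made from plastid lipids, showed lower synthesis genes and a higher regulator. Of 25 jasmonate genes, 13 fell and 2 rose, with a median of -0.56. LOX2, the chloroplast lipoxygenase at the start of the synthesis, stood at 639, 662 and 920 CPM in Col-0 and 262, 291 and 318 CPM in dxo1-2, without overlap (log2 fold change -1.35, SE 0.19, adjusted p 5.5e-05). The allene oxide cyclase genes AOC1, AOC2 and AOC3 fell with log2 fold changes of -1.55, -1.46 and -1.38, and as close copies they share reads that the counting may have left out. OPR3, the reductase that follows in the peroxisome, was at 185, 237 and 253 CPM in Col-0 and 88.9, 146 and 170 CPM in dxo1-2 (log2 fold change -0.74, SE 0.19, adjusted p 0.00621). JAR1, which joins jasmonate to isoleucine to give the active hormone, fell as well (log2 fold change -1.07, SE 0.15, adjusted p 7.3e-05), and TAT3, an aminotransferase gene induced by jasmonate, fell by 1.83. ORA47, an ERF transcription factor that activates synthesis genes, moved the other way. It stood at 5.78, 4.79 and 5.94 CPM in Col-0 and 64.1, 62.0 and 37.7 CPM in dxo1-2, 9.93-fold higher in dxo1-2 (log2 fold change 3.31, SE 0.32, adjusted p 2.2e-06). MYC2 and COI1, the main transcription factor and the receptor of the pathway, did not pass (0.42 at an adjusted p of 0.162 and -0.19 at an adjusted p of 0.0698).

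The JAZ genes, repressors that jasmonate both degrades and induces, did not move as a group. Of 11 tested, JAZ9 and JAZ8 fell, JAZ12 rose, and the median of -0.07 changed sign between alternatives, from -0.24 to 0.11. JAZ9 was at 287, 260 and 321 CPM in Col-0 and 166, 214 and 229 CPM in dxo1-2 and JAZ12 at 53.2, 50.8 and 57.5 CPM in Col-0 and 80.7, 91.0 and 83 CPM in dxo1-2, each without overlap. JAZ8 was at 3.57, 2.81 and 8.41 CPM in Col-0 and 1.2, 2.04 and 3.20 CPM in dxo1-2, high in Col-0 replicate 3, and its call was lost without that library and without dxo1-2 replicate 1 or 2. In contrast, 9 of the 11 were higher in dxo1-2 than in xrn3-8 and none was lower, with a log2 difference for JAZ12 of 1.31 at an adjusted p of 1.9e-08. In xrn3-8 against Col-0, 10 of the 11 fell and none rose.

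Defensins and related proteins induced by ethylene together with jasmonate fell furthest: 7 of 9 were lower, none higher, and the median was -1.89, or -5.21 without dxo1-2 replicate 3. PDF1.2, the standard marker of this branch, stood at 10.8, 13.8 and 7.04 CPM in Col-0 and 0.141, 0.204 and 0.887 CPM in dxo1-2. All dxo1-2 libraries were under 1 CPM, with replicate 3 above the other 2 (log2 fold change -4.68, SE 0.63, adjusted p 4.2e-05), and without that replicate the log2 fold change was -5.92. PDF1.2b held 103, 107 and 56 reads in Col-0 and 0, 0 and 3 in dxo1-2. PDF1.3 fell by 3.99 on the log2 scale, and by 5.38 without dxo1-2 replicate 3, and PDF1.2c by 4.49, and by 3.18 without Col-0 replicate 2. The sequences of these family members are close, so their counts are uncertain. Genes outside the family behaved alike: PR4, a chitin-binding protein, was at 23.8, 27.2 and 29.9 CPM in Col-0 and 7.96, 11.5 and 10.6 CPM in dxo1-2 (log2 fold change -1.43, SE 0.25, adjusted p 0.000388), and the regulator ORA59 fell with -1.08 at an adjusted p of 0.00608. Against xrn3-8, 6 of the 9 were lower in dxo1-2 and 1 was higher.

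**Figure D4:**
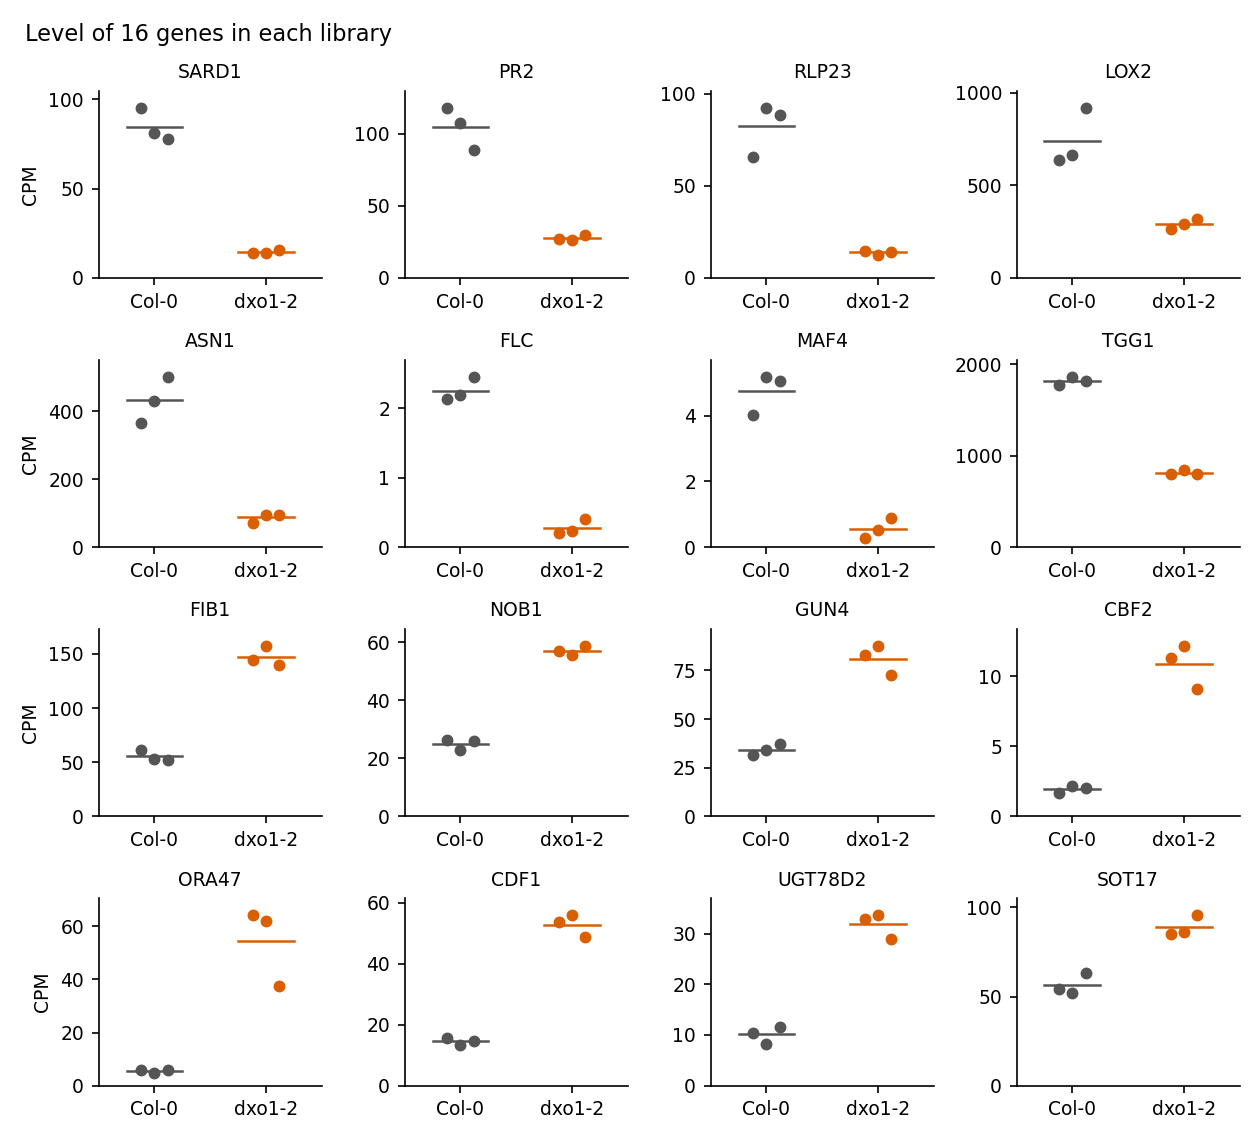
Level in CPM (y axis from 0) of 16 genes in each Col-0 and dxo1-2 library (points) with the group mean (line). In every panel the 3 dxo1-2 points lie apart from the 3 Col-0 points. They lie below them for defence genes such as SARD1 (13.8 to 15.4 against 77.8 to 95.4 CPM). They lie above them for FIB1, NOB1, GUN4, CBF2, ORA47, CDF1, UGT78D2 and SOT17. The 16 genes were picked with their values known, so this separation is not a result about them. Across all tested genes, 55.7% showed such separation in either direction.

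Genes that respond rapidly to touch, cold or wounding, most of them for transcription factors, were split. Of 21, 10 rose and 6 fell, with a median of 0.69. The CBF genes, which switch on cold acclimation, rose most: CBF2 stood at 1.67, 2.19 and 1.99 CPM in Col-0 and 11.3, 12.2 and 9.10 CPM in dxo1-2, without overlap (log2 fold change 2.47, SE 0.27, adjusted p 6.7e-06). CBF1 and CBF3 rose by 2.77 and 3.35 on the log2 scale from under 1.3 CPM, and the 3 genes are close tandem copies. The ERF genes of the defence and growth response rose as well, with ERF5 at 36.0, 28.7 and 24.9 CPM in Col-0 and 62.7, 64.4 and 52.7 CPM in dxo1-2 (log2 fold change 1.0, SE 0.17, adjusted p 0.000239), ERF6 at 0.81 at an adjusted p of 0.000676 and ERF104 at 1.2 at an adjusted p of 1.4e-05. The falls were in the calcium-binding genes TCH3 (-1.17 at an adjusted p of 3.4e-06) and CML38 (-1.13 at an adjusted p of 0.00117), in WRKY18 and WRKY40, in ZAT6 and in the xyloglucan enzyme gene TCH4. TCH3 was at 554, 715 and 649 CPM in Col-0 and 262, 282 and 310 CPM in dxo1-2, its groups well apart, while the TCH4 call was lost without Col-0 replicate 1 or dxo1-2 replicate 1 or 2, with an adjusted p of up to 0.0702. Against xrn3-8, 14 of the 21 were higher in dxo1-2 and 1 lower, while in xrn3-8 against Col-0 9 of the 21 fell and 3 rose.

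Genes induced by cold and abscisic acid gave 9 higher and 1 lower of 24, with a median of 0.43. NCED3, the rate-limiting enzyme of abscisic acid synthesis, stood at 7.02, 7.16 and 9.59 CPM in Col-0 and 15.6, 21.4 and 20.6 CPM in dxo1-2 (log2 fold change 1.28, SE 0.25, adjusted p 0.000954). The phosphatase genes ABI1 and ABI2, negative regulators of the hormone's signalling, rose with 0.61 at an adjusted p of 0.000215 and 0.99 at an adjusted p of 0.000101, and KIN1, a small cold-induced protein, was at 0.540, 1.21 and 1.39 CPM in Col-0 and 3.58, 2.59 and 5.90 CPM in dxo1-2 (log2 fold change 1.95, SE 0.34, adjusted p 0.000380). COR15B, a direct target of the CBF factors, rose by 0.70, while COR47 was the member that fell, a call lost without Col-0 replicate 2 or dxo1-2 replicate 1 or 2. Without Col-0 replicate 3 or without dxo1-2 replicate 3 the count of members that rose was 5. Heat shock genes gave 6 higher and 1 lower of 15, with a median of 0.34, among them the heat-stress regulator DREB2A at 3.06, 5.41 and 4.27 CPM in Col-0 and 8.87, 9.26 and 9.28 CPM in dxo1-2 (log2 fold change 1.1, SE 0.20, adjusted p 0.000476) and MBF1C (1.01 at an adjusted p of 0.000196). A further 7 heat shock genes had too few reads to test.

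Genes of ribosome biogenesis in the nucleolus leaned higher in dxo1-2. Of 34 genes, 23 rose, 1 fell, and the median was 0.36. Box C/D particles, which methylate ribosomal RNA, have fibrillarin as their enzyme, and FIB1 stood at 61.0, 53.4 and 51.8 CPM in Col-0 and 145, 157 and 140 CPM in dxo1-2, 2.66-fold higher without overlap (log2 fold change 1.41, SE 0.10, adjusted p 1.8e-07). Its core partner NOP5-1 was at 53.8, 43.3 and 48.2 CPM in Col-0 and 98.5, 80.1 and 86.8 CPM in dxo1-2 (log2 fold change 0.87, SE 0.10, adjusted p 1.2e-05), and NOP56 rose by less (0.34 at an adjusted p of 0.00406). The H/ACA particles, which make pseudouridine, moved with them: the enzyme gene NAP57 was at 31.9, 27.5 and 29.5 CPM in Col-0 and 57.9, 55.7 and 52.2 CPM in dxo1-2 (log2 fold change 0.90, SE 0.09, adjusted p 4.6e-06), and NHP2 and GAR1 rose by 0.96 and 0.87.

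Factors of ribosomal RNA cleavage and late modification followed. NOB1, the endonuclease that cuts the last precursor of 18S ribosomal RNA, stood at 26.4, 23.0 and 25.8 CPM in Col-0 and 57.1, 55.4 and 58.6 CPM in dxo1-2, with a tight spread in each group (log2 fold change 1.19, SE 0.08, adjusted p 1.1e-07). DIM1A, a dimethylase of the same RNA, was at 17.2, 18.0 and 20.01 CPM in Col-0 and 48.1, 42.4 and 39.5 CPM in dxo1-2 (log2 fold change 1.23, SE 0.12, adjusted p 1.9e-06), and SWA1, needed early in the processing, rose by 1.06. For the large subunit, PES and BOP1 rose by 0.54 and 0.36. Nucleolin is encoded by a pair of genes that parted here: NUC-L1 was at 135, 120 and 120 CPM in Col-0 and 139, 128 and 135 CPM in dxo1-2 and did not pass (0.10 at an adjusted p of 0.306), and NUC-L2 was the member that fell, from a range of 3.91 to 7.14 CPM to one of 2.42 to 3.58 CPM (log2 fold change -0.93, SE 0.25, adjusted p 0.00787). The last call was lost without Col-0 replicate 1, at an adjusted p of 0.0563. Against xrn3-8, 23 of the 34 were higher in dxo1-2 and 3 lower, and FIB1 differed by 1.63 at an adjusted p of 3.2e-08.

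The guide RNAs of these particles had a median below zero. Of 187 small nucleolar RNA genes with enough reads, 29 (15.5%) fell and none rose, beside 20.7% and 21.5% of all tested genes, so the share that fell was below that of all genes. The median log2 fold change was -0.43, and 152 had a log2 fold change below zero. The falls called lay between -1.45 and -0.57. The libraries lay apart and lower in dxo1-2 for 73 of these 187 genes and apart and higher for 5, beside 27.4% and 28.3% of all tested genes. Their levels were low, with a median of 0.592 CPM, and they summed to 238 to 288 CPM per Col-0 library and to 187 to 246 CPM per dxo1-2 library, ranges that overlap. The count of falls was 14 without dxo1-2 replicate 2, 16 without dxo1-2 replicate 1 or Col-0 replicate 3 and 18 without Col-0 replicate 1, where 1 gene rose. Whether a library kit of this type captures such short RNAs alike in all libraries was not tested. None of the 187 was higher in dxo1-2 than in xrn3-8 and 40 were lower, beside 25.9% of all tested genes in each direction. Small nuclear RNA genes, of the splicing machinery, gave 4 higher and none lower of 12, at a median level of 0.124 CPM.

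Of 33 genes for RNA 5′-end processing and decay, the process DXO1 itself serves, 5 (15.2%) rose and 8 (24.2%) fell, with a median of -0.05. The share that rose was below the 21.5% of all tested genes, and the share that fell was near their 20.7%. The largest changes were in the core of the exosome, which degrades RNA from the 3′ end. RRP4 stood at 4.48, 4.04 and 5.51 CPM in Col-0 and 11.2, 11.3 and 11.2 CPM in dxo1-2, without overlap (log2 fold change 1.27, SE 0.12, adjusted p 1.7e-06), and RRP41 rose as well (0.87 at an adjusted p of 6.3e-06). Among 5′ exoribonucleases, the nuclear XRN2 stood at 76.7, 70.8 and 73.9 CPM in Col-0 and 57.3, 58.6 and 57.6 CPM in dxo1-2 and fell (log2 fold change -0.35, SE 0.07, adjusted p 0.00126), and the cytoplasmic XRN4 fell with -0.34 at an adjusted p of 0.00255. The decapping genes DCP1 and DCP2 were not called. The count of falls is fragile: it was 5 without Col-0 replicate 1, 3 without Col-0 replicate 3 and 3 without dxo1-2 replicate 1. Of 27 genes of small RNA and silencing pathways, 7 (25.9%) rose and 5 (18.5%) fell, near the shares of all tested genes, with a median of 0.04. AGO3 and AGO2, argonautes that bind small RNAs, rose with 1.12 at an adjusted p of 0.000461 and 0.74 at an adjusted p of 0.00130, and RDR1, an RNA-dependent RNA polymerase of antiviral defence, was at 32.1, 33.2 and 31.6 CPM in Col-0 and 18.5, 17.7 and 22.5 CPM in dxo1-2 (log2 fold change -0.72, SE 0.08, adjusted p 1.2e-05).

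NAD metabolism bears on the cap that DXO1 removes. Of 15 genes, 4 rose and 4 fell, each 26.7%, beside 21.5% and 20.7% of all tested genes, with a median of -0.09. Among nudix hydrolases, which cleave NADH and related molecules, NUDT7 stood at 138, 131 and 121 CPM in Col-0 and 54.9, 66.0 and 75.7 CPM in dxo1-2 (log2 fold change -0.99, SE 0.10, adjusted p 3.5e-06) and NUDT6 fell by 1.42, while NUDT19 rose from a range of 12.9 to 15.3 CPM to one of 31.0 to 36.3 CPM (log2 fold change 1.24, SE 0.17, adjusted p 4.3e-05). NADK1, a kinase that turns NAD into NADP, fell with -0.81 at an adjusted p of 0.000203, and PARP2, which uses NAD to modify proteins at DNA breaks, rose with 0.96 at an adjusted p of 7.1e-06. QS, for the quinolinate synthase of NAD synthesis, was not called (0.05 at an adjusted p of 0.643).

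Plastid-encoded genes took 51.6, 51.6 and 50.8% of all gene counts in the Col-0 libraries and 48.5, 47.6 and 47.8% in the dxo1-2 libraries. The ranges do not overlap, and the mean share fell from 51.3 ± 0.465% (SD, n = 3) to 48.0 ± 0.491% (SD, n = 3). The difference of -3.34 percentage points had an exact two-sided permutation p of 0.1, the smallest that 3 against 3 libraries can give. The mitochondrial share was 0.605 ± 0.0130% in Col-0 and 0.619 ± 0.0106% in dxo1-2 (SD, n = 3 each), with overlapping libraries (exact permutation p 0.3). The direction depends on the scale. In CPM, the tested mitochondrion-encoded genes summed to 6785 to 6932 in Col-0 and to 6175 to 6274 in dxo1-2, without overlap. The TMM factors behind CPM were 0.863 to 0.892 in Col-0 and 0.977 to 1.015 in dxo1-2. The summed CPM of the 6 leaf markers was also lower in dxo1-2, but it is not a share of gene counts, and 1 of the 6 was called. The part of cell composition in the plastid share was not tested.

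Gene by gene, 33 of 124 plastid-encoded genes tested (26.6%) fell and none rose, beside 20.7% and 21.5% of all tested genes, with a median of -0.27 and 103 genes below zero. In 62 of the 124 genes the dxo1-2 libraries lay wholly below the Col-0 libraries, and in none wholly above, beside 27.4% and 28.3% of all tested genes. ATCG00900 was at 36.9, 41.0 and 32.3 CPM in Col-0 and 18.4, 19.1 and 16.8 CPM in dxo1-2 (log2 fold change -1.02, SE 0.11, adjusted p 7.8e-06). ATCG00290 was at 474, 455 and 400 CPM in Col-0 and 336, 83.1 and 84.6 CPM in dxo1-2, where dxo1-2 replicate 1 stood far above the other dxo1-2 libraries. Its call (log2 fold change -1.40, SE 0.46, adjusted p 0.0247) was lost without Col-0 replicate 1 or 2 and without dxo1-2 replicate 2 or 3, and its log2 fold change was -2.38 without dxo1-2 replicate 1. The count of falls depended on single libraries and on the fit: it was 13 without Col-0 replicate 2, 17 without dxo1-2 replicate 2 or replicate 3, and 60 in a fit of the 2 genotypes alone. Of the 124, 16 were lower in dxo1-2 than in xrn3-8 and 2 higher, beside 25.9% of all tested genes in each direction. Of 103 mitochondrion-encoded genes, 9 rose and 9 fell, both shares below those of all genes, with a median of 0.09. Rises numbered 5 without Col-0 replicate 2, and falls 5 without dxo1-2 replicate 1 and 14 with DESeq2. ATMG00480 and ATMG00110 fell, with log2 fold changes of -0.78 at an adjusted p of 0.000113 and -0.77 at an adjusted p of 1.0e-05, and ATMG00690 rose (0.56 at an adjusted p of 0.00342). The annotation used for names does not pair these organelle identifiers with names.

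**Figure D5:**
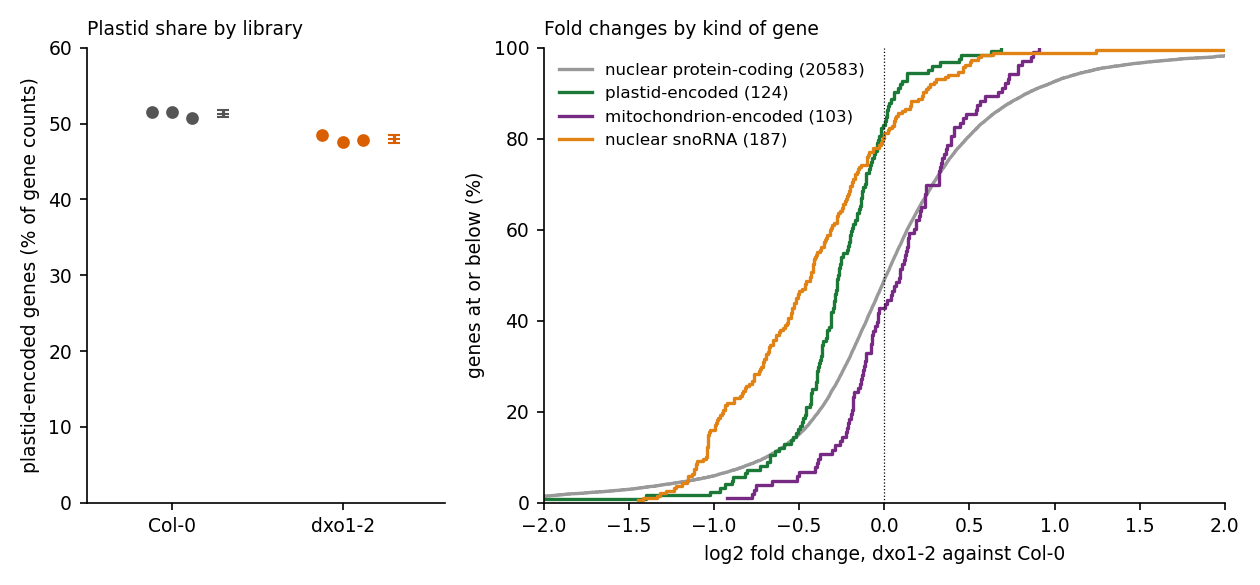
Left, the percent of gene counts from plastid-encoded genes in each library (points), with mean and SD (bars), at 50.8 to 51.6% in Col-0 and 47.6 to 48.5% in dxo1-2. Right, cumulative distribution of the log2 fold change of plastid-encoded, mitochondrion-encoded and nuclear genes tested, drawn from -2 to 2: the plastid curve lies to the left with a median of -0.27, the mitochondrial one near the nuclear one with a median of 0.09.

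Nuclear genes that serve the plastid split by role. Factors that mature chloroplast ribosomal RNA rose: 9 of 14 were higher and 1 lower, with a median of 0.28. RNJ, for the ribonuclease J that trims plastid transcripts, stood at 21.4, 22.2 and 17.7 CPM in Col-0 and 33.5, 31.7 and 30.2 CPM in dxo1-2 (log2 fold change 0.64, SE 0.09, adjusted p 6.0e-05). The DEAD-box helicase genes RH39, RH22 and RH3, needed for the large plastid subunit, rose with 0.57 at an adjusted p of 3.1e-05, 0.46 at an adjusted p of 0.000274 and 0.35 at an adjusted p of 0.00390, and the plastid polynucleotide phosphorylase gene RIF10 was at 45.9, 47.3 and 42.2 CPM in Col-0 and 59.8, 58.6 and 55.1 CPM in dxo1-2 (log2 fold change 0.36, SE 0.07, adjusted p 0.00154). CRB, an RNA-binding protein of the same organelle, was the member that fell (-0.27 at an adjusted p of 0.0148), a call that was lost without Col-0 replicate 2 or without dxo1-2 replicate 3, at an adjusted p of up to 0.119. Of 20 genes of the plastid transcription machinery, 7 rose and 1 fell, with a median of 0.19. FLN1, a fructokinase-like part of the plastid RNA polymerase complex, was at 18.3, 18.8 and 16.5 CPM in Col-0 and 25.5, 24.1 and 24.1 CPM in dxo1-2 (log2 fold change 0.46, SE 0.07, adjusted p 0.000199), the sigma factor SIG6 rose by 0.33, and the sigma factor SIG2 fell (-0.41 at an adjusted p of 0.00313). Under upper quartile scaling 11 of the 20 rose.

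Among nuclear photosynthesis genes, the share that fell was above the 20.7% of all genes for photosystem subunits and below it for light-harvesting and Calvin cycle genes. Of 23 photosystem subunits, 11 fell and 1 rose, with a median of -0.30. PSAN, of photosystem I, stood at 1084, 1132 and 967 CPM in Col-0 and 582, 593 and 551 CPM in dxo1-2 (log2 fold change -0.88, SE 0.11, adjusted p 2.9e-05), and PSBW, of photosystem II, at 1109, 1185 and 989 CPM in Col-0 and 581, 653 and 581 CPM in dxo1-2 (log2 fold change -0.86, SE 0.09, adjusted p 3.4e-06), both without overlap. NPQ4, the photoprotection protein PsbS, was the member that rose (0.21 at an adjusted p of 0.0489), a call that was lost with median-of-ratios factors, with the replicate number as a block and without Col-0 replicate 1 or 3 or dxo1-2 replicate 1 or 2. Of 20 light-harvesting genes, 4 fell and none rose, with a median of -0.21, and 8 fell in a fit of the 2 genotypes alone. LHCB6 fell with -0.87 at an adjusted p of 0.000124 and LHCA4 with -0.55 at an adjusted p of 0.000682, while LHCB1.3 and LHCB3 overlapped between the groups. Of 12 Calvin cycle genes, RBCS2B (-0.82 at an adjusted p of 4.0e-05) and SBPASE (-0.24 at an adjusted p of 0.0310) fell and none rose, with a median of -0.12. The SBPASE call was lost without a filter, with upper quartile scaling and without any 1 of the 6 libraries, at an adjusted p of up to 0.194. Against xrn3-8, dxo1-2 was higher in 11 light-harvesting, 11 photosystem and 9 Calvin cycle genes, and lower in 0, 3 and 0, in the order named. In xrn3-8 against Col-0, 16 light-harvesting, 20 photosystem and 12 Calvin cycle genes fell and none rose. LHCB3 had a mean of 1228 CPM in xrn3-8 beside 2440, 2810 and 2444 CPM in Col-0 and 2366, 2680 and 2144 CPM in dxo1-2 (log2 difference of dxo1-2 from xrn3-8 0.96 at an adjusted p of 8.0e-06).

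Chlorophyll synthesis genes gave 3 higher and 3 lower of 16, each 18.8%, beside 21.5% and 20.7% of all tested genes, with a median of -0.10. GUN4, an activator of magnesium chelatase, stood at 31.3, 34.2 and 37.3 CPM in Col-0 and 82.7, 87.5 and 72.4 CPM in dxo1-2, 2.36-fold higher and without overlap (log2 fold change 1.24, SE 0.10, adjusted p 4.9e-07). CRD1, of the cyclase step that follows, rose with 0.55 at an adjusted p of 0.000287, and CHLG, the last enzyme of the route, with 0.34 at an adjusted p of 0.00789. The falls were in CAO, which makes chlorophyll b (-0.39 at an adjusted p of 0.00286), in PORA (-0.67 at an adjusted p of 0.00279) and in CHLM, the last of which lost its call without Col-0 replicate 2 (adjusted p 0.0609). Without Col-0 replicate 2 the median of the list was 0.01. Against xrn3-8, 13 of the 16 were higher in dxo1-2 and 1 lower, and GUN4 differed by 1.93 at an adjusted p of 8.2e-09. In xrn3-8 against Col-0, 11 of the 16 fell and 1 rose.

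The circadian clock couples morning, day and evening regulators, and a level at 1 harvest does not separate a change of amount from a change of phase. Of 24 clock genes, 10 rose and 3 fell, with a median of 0.17. The morning genes CCA1 and LHY were not called, at 68.2, 54.4 and 70.3 CPM in Col-0 and 61.9, 58.2 and 52.1 CPM in dxo1-2 and at -0.30 at an adjusted p of 0.164. The pseudo-response regulators of the day were divided: PRR9 rose, at 21.8, 17.8 and 17.1 CPM in Col-0 and 44.6, 42.2 and 34.2 CPM in dxo1-2 (log2 fold change 1.09, SE 0.19, adjusted p 0.000407), as did PRR5 with 0.83 at an adjusted p of 0.000241, while PRR7 fell with -0.29 at an adjusted p of 0.0224, a call lost without Col-0 replicate 1 or 2 or dxo1-2 replicate 1 or 3. CHE, a repressor of CCA1, rose (log2 fold change 1.02, SE 0.11, adjusted p 5.9e-06). In the evening set, LUX was at 6.46, 7.86 and 5.48 CPM in Col-0 and 12.9, 16.4 and 16.1 CPM in dxo1-2 (log2 fold change 1.19, SE 0.13, adjusted p 9.1e-06), the blue light receptor FKF1 at 2.42, 2.42 and 1.62 CPM in Col-0 and 6.24, 7.57 and 9.20 CPM in dxo1-2 (log2 fold change 1.82, SE 0.17, adjusted p 1.7e-06), and TOC1 was not called (-0.03 at an adjusted p of 0.825). RVE8 and LNK2, activators of evening genes, fell with -0.91 at an adjusted p of 0.00306 and -0.73 at an adjusted p of 0.000170. Against xrn3-8, 12 of the 24 were higher in dxo1-2 and 8 lower: PRR9 by 3.33 at an adjusted p of 3.8e-08, CCA1 by 2.21 at an adjusted p of 1.4e-08 and TOC1 by -1.42 at an adjusted p of 2.4e-08.

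Among 13 genes that the clock drives, 6 rose and 1 fell, with a median of 0.44. CDF1, a repressor of CONSTANS and FT, stood at 15.7, 13.5 and 14.7 CPM in Col-0 and 53.6, 55.8 and 48.7 CPM in dxo1-2, 3.61-fold higher (log2 fold change 1.85, SE 0.12, adjusted p 8.5e-08), and CDF3 rose with it (0.80 at an adjusted p of 0.00154). Flowering time genes leaned lower, with 11 of 21 lower, 4 higher and a median of -0.30. FLC, the central repressor of flowering, was low in all libraries, at 2.13, 2.19 and 2.45 CPM in Col-0 and 0.198, 0.238 and 0.413 CPM in dxo1-2, and its levels in dxo1-2 were 7.93-fold lower (log2 fold change -2.99, SE 0.33, adjusted p 7.8e-06). Its relatives followed: MAF4 was at 4.03, 5.18 and 5.05 CPM in Col-0 and 0.283, 0.510 and 0.902 CPM in dxo1-2 (log2 fold change -3.08, SE 0.31, adjusted p 2.7e-06), MAF5 fell by 2.12 and FLM by 0.87. Of promoters of flowering, AGL24 fell with -1.33 at an adjusted p of 1.2e-06 and SOC1 with -0.57 at an adjusted p of 0.00966, AGL19 rose as given above, and FT was not called. SVP, a repressor, was at 50.8, 52.1 and 52.6 CPM in Col-0 and 78.5, 71.7 and 64.3 CPM in dxo1-2 and rose (log2 fold change 0.47, SE 0.08, adjusted p 0.000299). FT levels overlapped between the groups, at 0.556, 0.542 and 0.783 CPM in Col-0 and 0.665, 0.681 and 0.596 CPM in dxo1-2. The floral identity gene AP1 held 2, 31 and 32 reads in Col-0 and none in dxo1-2, and its level in Col-0 replicate 1 was itself near 0. The count of members that rose was 2 without Col-0 replicate 1.

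Dark-inducible and senescence genes were lower: 11 of 20 fell, none rose, and the median was -0.51. ASN1, the asparagine synthetase of low carbon, stood at 364, 431 and 501 CPM in Col-0 and 71.1, 96.0 and 94.8 CPM in dxo1-2, 4.95-fold lower without overlap (log2 fold change -2.31, SE 0.22, adjusted p 1.9e-06). SEN1, a dark-induced gene, was at 99.1, 79.9 and 118 CPM in Col-0 and 20.7, 24.3 and 16.2 CPM in dxo1-2 (log2 fold change -2.28, SE 0.18, adjusted p 4.7e-07), and DIN10, a raffinose synthase-like gene of sugar starvation, fell with -0.98 at an adjusted p of 0.00208. The chlorophyll breakdown enzymes PAO and PPH fell by 0.58 and 0.44, and NYC1, of the same route, was not called. SAG12, the protease marker of senescence, held 47 reads in Col-0 replicate 1 and none in the other 5 libraries, so its call rests on that library and was lost without it or without any of the dxo1-2 libraries. Without Col-0 replicate 1 the count of falls was 7. Against xrn3-8, 15 of the 20 were lower in dxo1-2 and 2 higher.

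Flavonoid and anthocyanin genes rose in 9 of 16 cases and fell in none, with a median of 0.69. TT4, chalcone synthase at the entry of the route, stood at 33.6, 30.5 and 39.6 CPM in Col-0 and 77.5, 93.4 and 68.0 CPM in dxo1-2 (log2 fold change 1.2, SE 0.21, adjusted p 0.000413). FLS1, which makes flavonols, was at 9.97, 7.16 and 8.95 CPM in Col-0 and 21.6, 20.7 and 18.9 CPM in dxo1-2 (log2 fold change 1.23, SE 0.15, adjusted p 1.9e-05), and UGT78D2, a glucosyltransferase of flavonols and anthocyanins, at 10.4, 8.25 and 11.6 CPM in Col-0 and 32.9, 33.6 and 29.0 CPM in dxo1-2, 3.15-fold higher (log2 fold change 1.66, SE 0.19, adjusted p 1.2e-05). The count of rises was 5 without Col-0 replicate 2 and 5 without dxo1-2 replicate 1. Against xrn3-8, 7 of the 16 were higher in dxo1-2 and 4 lower.

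Glucosinolates, the sulfur-rich defence compounds of the cabbage family, were covered by 2 lists with medians of opposite sign. Of 24 genes of the methionine-derived aliphatic branch, 10 rose and 2 fell, with a median of 0.23. MYB76, a regulator of the branch, rose from a range of 2.58 to 3.47 CPM to one of 5.80 to 7.41 CPM (log2 fold change 1.2, SE 0.14, adjusted p 1.6e-05), and the sulfotransferase SOT17, of the last step of the core structure, was at 54.0, 52.1 and 63.4 CPM in Col-0 and 85.1, 86.2 and 95.6 CPM in dxo1-2 (log2 fold change 0.66, SE 0.09, adjusted p 4.5e-05). UGT74C1 and IPMI2, for a glucosyltransferase and an isomerase subunit of side-chain elongation, rose by 0.85 and 1.17, and MAM3, of the same elongation, fell by 0.78. Against xrn3-8, 21 of the 24 were higher in dxo1-2 and 1 lower, while in xrn3-8 against Col-0 21 of the 24 fell and 1 rose. The other list joined genes of the tryptophan-derived branch with the myrosinase genes TGG1 and TGG2. Of its 9 genes, 5 fell and 1 rose, with a median of -0.57, and both myrosinase genes were among the 5. TGG1, the myrosinase that breaks down glucosinolates, stood at 1772, 1865 and 1820 CPM in Col-0 and 800, 846 and 797 CPM in dxo1-2 (log2 fold change -1.16, SE 0.08, adjusted p 1.8e-07), TGG2 fell by 1.06, and MYB51, regulator of the indole branch, was at 51.7, 50.5 and 42.2 CPM in Col-0 and 20.1, 22.5 and 22.1 CPM in dxo1-2 (log2 fold change -1.16, SE 0.12, adjusted p 5.9e-06). CYP79B2, which starts the branch, was the member that rose (log2 fold change 0.58, SE 0.16, adjusted p 0.0106). Of 15 genes of the response to sulfur limitation, 5 rose and 1 fell, with a median of 0.31. SDI2 rose with 1.0 at an adjusted p of 0.000132 and the sulfate transporter SULTR2;1 with 0.31 at an adjusted p of 0.00110.

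Methionine salvage genes gave 7 lower and 1 higher of 9, with a median of -0.26. ARD3 stood at 11.2, 9.35 and 13.9 CPM in Col-0 and 1.5, 0.681 and 0.933 CPM in dxo1-2, 10.9-fold lower (log2 fold change -3.45, SE 0.23, adjusted p 1.1e-07), whereas MTN1, the nucleosidase at the start of the cycle, was at 35.7, 36.6 and 35.0 CPM in Col-0 and 23.8, 27.0 and 23.7 CPM in dxo1-2 (log2 fold change -0.53, SE 0.08, adjusted p 0.000193). The count of falls was 4 without dxo1-2 replicate 1 and 4 without dxo1-2 replicate 3. Mitochondrial stress and retrograde genes gave 6 lower and 2 higher of 11, with a median of -0.41. BCS1, an outer membrane protein induced by mitochondrial stress and salicylic acid, stood at 144, 112 and 136 CPM in Col-0 and 21.4, 22.4 and 33.9 CPM in dxo1-2, 5.05-fold lower (log2 fold change -2.34, SE 0.20, adjusted p 7.5e-07). UGT74E2 fell with -1.32 at an adjusted p of 0.000874, NAC017, a regulator of this response, by 0.46, and AOX1A, the alternative oxidase used as its marker, was not called (-0.13 at an adjusted p of 0.421). GUN1, which signals from the plastid to the nucleus, was at 126, 131 and 125 CPM in Col-0 and 93.5, 99.3 and 95 CPM in dxo1-2 and fell (log2 fold change -0.41, SE 0.08, adjusted p 0.00135), and UPOX rose with 0.94 at an adjusted p of 7.8e-05.

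Several of the genes named overlap an annotated gene on the other strand, SARD1, RLP23, ORA47, CBF3, GUN4, TT4, ASN1 and FLC among them, and FIB1 overlaps one on its own strand. Their levels may include reads of the neighbour, since the strand setting of the counting is not given in the sources used here. Over all tested genes, 41.6% of those with an opposite-strand neighbour were called and 42.9% of those without any overlap. The shoot meristem regulator STM rose (log2 fold change 0.77, adjusted p 0.00268), and the 4 meristem markers summed to 3.89 to 4.89 CPM in Col-0 and to 5.15 to 7.06 CPM in dxo1-2. The part of such shifts in cell composition in the gene groups above was not tested.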

How the data were processed

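The deposited files hold whole-number read counts per gene, 1 file per library, with no normalisation. Per the submitters' processing notes, which give no roles, HISAT2 2.0.4, HTSeq 0.6.0, SAMtools 1.1 and the build TAIR10 were used. Per the labels' protocols, total RNA was extracted with Trizol and made into stranded libraries after removal of ribosomal RNA. The annotation and the strand setting of the counting are not given in the sources used here. Summary lines for reads without a gene stayed out of library sizes and tests. In the 6 libraries of dxo1-2 and Col-0, reads outside every gene made up 7.67 to 9.06% of the file, reads on more than 1 gene 0.951 to 1.13%, unaligned reads 1.51 to 1.78%, and reads with several alignments 9.80 to 11.0%, so genes with close copies can be undercounted.

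The counts of all 12 libraries entered 1 fit in edgeR 4.0.16 (R 4.3.3), with TMM scaling, filterByExpr at a minimum count of 10 and a total of 15, 1 coefficient per genotype and no covariate. The quasi-likelihood test was run for dxo1-2 against Col-0, for xrn3-8 against Col-0 and for dxo1-2 against xrn3-8, which tests a difference between the mutants. Benjamini-Hochberg adjustment was over 21974 genes. SE is the log2 fold change over the square root of F. Between libraries of a genotype the chi-square of their counts was 14.6 to 20.5 times its degrees of freedom, so each counted as 1 replicate. In simulated counts of 20970 genes, 100 were changed by 1.5 and 100 by 0.5 on the log2 scale, all at 1 CPM or more. The test recovered 95% and 25% of them, in that order, and 4% of its calls were false. So few changed genes are unlike the 42.1% called here, and these rates need not hold for this comparison. Names, gene types and neighbours came from RefSeq TAIR10.1, which matched 36899 of 36899 nuclear identifiers, and no coordinates are given because the builds differ.

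The gene lists, their members and the comparison were chosen with earlier results of these data known. Genes were named by a rule: DXO1, XRN3 and the genes within 3 positions of DXO1, the 12 largest rises and falls at a mean of at least 5 CPM without overlap between groups, in each list the 5 largest called changes at 1 CPM or more and the 3 highest levels, and the 2 largest changes each way of each other gene type. Another 61 genes were named for their role after their values were seen. Alternatives were DESeq2 1.42.0, other scalings and filters, nuclear genes alone, the 2 genotypes alone, the replicate number as a block, a 2-fold limit and each library left out.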

Additional observations from a re-analysis of the deposited data

How the results depend on the processing

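The count of genes called in dxo1-2 against Col-0, 9252, stayed within 1.5 times under each alternative test, scaling, filter and left-out library. It was 9739 with DESeq2, 8927 without a filter, 8743 at a mean count of at least 50 and 9925 with the 2 genotypes alone, and no gene called in both fits had the opposite sign in any alternative. Upper quartile scaling shifted the median nuclear log2 fold change from 0.01 to 0.05 and gave 5253 higher and 4005 lower. With 1 library left out the count was 7565 to 8382, with 4077 to 4516 higher and 3488 to 3866 lower. With a 2-fold limit it was 2359, 1252 higher and 1107 lower. Against xrn3-8, 11394 genes differed, 9967 to 10580 with 1 library left out (5101 to 5368 higher, 4866 to 5249 lower), and 3296 with a 2-fold limit, 1660 higher and 1636 lower. The difference in plastid share was -3.62 to -3.15 points with 1 library left out and -2.38 points as a share of all reads, and that in mitochondrial share was 0.00828 to 0.0213 points.

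Of 246 named genes called, 215 were called under every alternative that tested them, 31 lost the call under at least 1, and none changed sign. Of 47 not called, 13 were called under at least 1 alternative, XRN3 among them. Genes near zero that were not called changed sign. Without a filter the log2 fold change was 0.0075 for RNMT1, 0.0080 for ROS1 (DML1) and 3.0e-05 for TOC1, and under upper quartile scaling 0.021, 0.022 and 0.014. CKB2 was at -0.0034 with DESeq2 and -0.0031 with median-of-ratios factors. With 1 library left out the range was -0.185 to 0.0062 for PORB, -0.0946 to 0.0048 for PSBX, -0.101 to 0.191 for ROS1, -0.0030 to 0.0554 for CKB2, -0.0225 to 0.0780 for PIF5 (PIL6), -0.0795 to 0.217 for CSP41A, -0.0701 to 0.265 for ERD10, -0.0253 to 0.255 for FT, -0.0566 to 0.0382 for RNMT1 and -0.0940 to 0.0773 for TOC1. Of 30 medians of lists and organelles, 28 kept their sign under every alternative that gave one. The median of the JAZ repressors ranged from -0.24 to 0.11, and that of chlorophyll synthesis was 0.01 without Col-0 replicate 2.

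With the replicate number as a block, 8933 genes were called against Col-0 (4573 higher, 4360 lower) and 11063 against xrn3-8. Libraries of the same number in the 2 genotypes deviated together at correlations of -0.003, 0.053 and 0.059, each under 0.1, so the numbers were not taken to pair the samples. No exact test of a share can go below 0.1 with 3 against 3 libraries, and genes under 1 CPM, with the largest standard errors, were called least often.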

Other observations

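Of 485 long non-coding RNA genes tested, 84 (17.3%) rose and 54 (11.1%) fell in dxo1-2, both below the 21.5% and 20.7% of all genes. Of 252 pseudogenes, 56 (22.2%) rose, near the share of all genes, and 29 (11.5%) fell. Of 189 transcribed pseudogenes, 28 (14.8%) rose and 42 (22.2%) fell, the latter near the share of all genes. Transcribed pseudogenes took 0.417 ± 0.00451% of nuclear counts in Col-0 and 0.366 ± 0.0129% in dxo1-2 (SD, n = 3 each), with no overlap, and long non-coding RNA genes 0.191 ± 0.0132% and 0.211 ± 0.00377% (SD, n = 3 each), again with no overlap. Both differences had an exact two-sided permutation p of 0.1, the smallest that 3 against 3 libraries can give.

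Reads that fell on more than 1 gene, the ambiguous reads of the counting, took 1.13 ± 0.00692% of all reads in Col-0 and 0.999 ± 0.0419% in dxo1-2 (SD, n = 3 each), without overlap between the groups (exact permutation p 0.1). Reads without a feature, not aligned or aligned to several places overlapped between the groups.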
